A study of Mus musculus with 12 samples.

Results

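The mitochondrial ribosomal protein genes described here are the 78 rows, of 55536 in the count table, whose mouse gene symbol begins with Mrpl or Mrps followed by a number. Of these, 49 are named Mrpl, for the large subunit, and 29 Mrps, for the small subunit, and 5 symbols that mark pseudogenes were left out. Their transcripts were measured by sequencing total RNA of mouse pancreatic islets in 12 libraries, 3 in each of 4 groups. The groups were islets labelled Ptpn2-bKO (genotype label PTPN2 -/-) cultured with 3 cytokines for 24 h (IFN-gamma, IL-1beta, TNF-alpha), the same islets without cytokines, control islets (genotype label PTPN2 fl/fl, and +/+ in the titles) given the 3 cytokines for the same time, and control islets without them. All mice were 16 weeks old and of a mixed background of C57BL/6J. The sources used here do not say whether the controls carry a Cre transgene, or which promoter drives Cre in the islets labelled bKO. The 6 libraries of a genotype came from 3 mice, so some must share a mouse. Which ones is not given, and the main test has no term for the mouse, so it ignores any pairing. Its p-values may also in part measure technical spread. Ptpn2 encodes a tyrosine phosphatase that dampens JAK-STAT signalling, and the comparisons ask what the cytokines and the genotype label do to the RNA of these genes.

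Mitochondria have ribosomes of their own, which translate only the messenger RNAs of the mitochondrial genome, all of them for subunits of the respiratory chain and ATP synthase. The ribosomal RNAs of these particles are made inside the organelle, whereas every protein of the particle is encoded in the nucleus, made on cytosolic ribosomes and imported. Some of the proteins descend from bacterial ribosomal proteins and others were added in the course of mitochondrial evolution. In beta cells, oxidative phosphorylation links glucose to insulin release.

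Libraries held 47064061 to 107515565 counts. Ptpn2 itself, the check of the labels, had 110, 84.1 and 107 CPM (counts relative to the TMM-scaled library size) in treated islets labelled bKO, against 88.8, 90.4 and 78.3 in treated controls. Untreated islets had 36.7, 33.8 and 35.5 CPM when labelled bKO, against 30.3, 31.5 and 31.4 in controls. Ptpn2 was therefore not lower under the bKO label (log2 0.23, SE 0.097, adjusted p = 0.26 with cytokines, and 0.19, SE 0.098, adjusted p = 0.989 without, edgeR quasi-likelihood test), and the genotype is given as a label. A count summed over the gene cannot show whether an exon was lost. Replicate 2 of the treated islets labelled bKO stood apart: the median absolute log2 deviation of its genes from the group was 0.158, against 0.0535 to 0.121 in the other libraries, and 0.078 for the mitochondrial ribosomal genes. Beta cell markers were abundant in every library (10 genes summing to 90086 to 162480 CPM in treated islets labelled bKO, 124537 to 135971 in untreated ones, 144638 to 177660 in treated controls and 125233 to 137094 in untreated controls). Gene by gene, 7 of the 10 were lower with cytokines and 0 higher in each genotype (median log2 change -2.29 in islets labelled bKO and -2.01 in controls), and the part of this change in the results was not tested. Among all tested genes 33.6% were lower and 28.8% higher in islets labelled bKO, and 33.9% and 26.8% in controls.

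The genes lie on 17 chromosomes (GRCm38, GENCODE release M21), with 607 to 8631 bases of annotated exon. Of the 78, 77 passed the filter on low counts, with 197 to 6269 counts in a library. Mrpl53, a protein at the base of the stalk (chr6:83109040-83109939, plus strand), had 0 counts in all 12 libraries. Its exons share 88.0% of their bases with Ccdc142os and Gm42688, and reads that fall on several genes may have been left uncounted. The same limit bears on Mrps34 (77.8% shared) and Mrps25 (69.8%), while 60 of the 78 share under 10%.

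**Figure D1:**
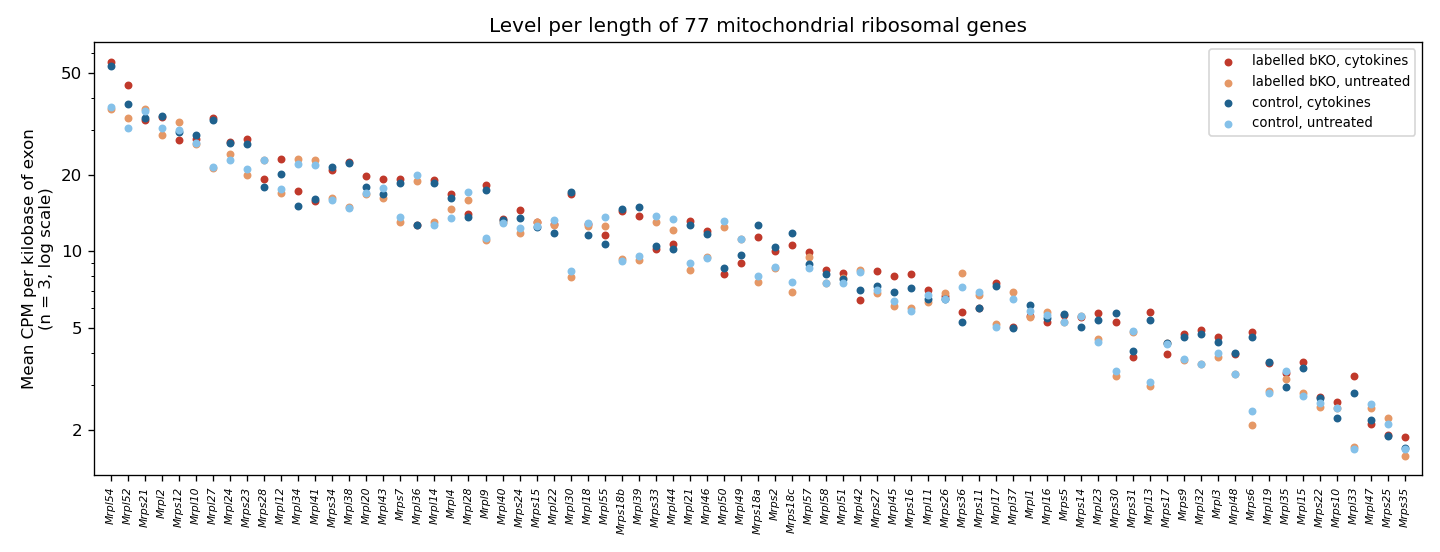
Mean level per length (CPM per kilobase of exon, log scale, n = 3) of the 77 tested genes, ordered from the highest (Mrpl54) to the lowest (Mrps35), with a point for each of the 4 groups. The levels span 1.71 to 45.3 CPM per kilobase over all libraries.

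Per kilobase of exon, the 77 genes had a median level of 9.92 CPM over all libraries. The 4 highest were Mrpl54, Mrpl52, Mrps21 and Mrpl2. Mrpl54, near the base of the stalk that recruits translation factors, averaged 55.3, 36.1, 53.2 and 36.7 CPM per kilobase in treated islets labelled bKO, untreated islets labelled bKO, treated controls and untreated controls. For Mrpl52 these means were 44.8, 33.3, 37.7 and 30.4, for Mrps21 32.8, 36.1, 33.3 and 35.5, and for Mrpl2 33.6, 28.7, 34 and 30.4. Mrpl54 thus led in the treated groups, whereas in the untreated groups it lay beside Mrps21. The 3 lowest tested genes were Mrps35 (1.86, 1.58, 1.70 and 1.68 CPM per kilobase in the same order of groups), Mrps25 (1.90, 2.22, 1.89 and 2.09) and Mrpl47 (2.11, 2.43, 2.17 and 2.52). Level showed no rank relation to the cytokine response across the 77 genes (Spearman rho -0.0011 for the log2 change in islets labelled bKO and 0.0026 in controls, a description across genes that share libraries).

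With cytokines, more mitochondrial ribosomal genes were called higher than lower on the TMM scale in both genotypes. In islets labelled bKO 38 of the 77 rose and 14 fell, where 28.8% of all 19800 tested genes rose and 33.6% fell (62.4% in either direction). In controls 31 rose and 15 fell, where 26.8% and 33.9% of all genes did (60.6% in either direction). Without a test, all treated libraries lay above all untreated ones for 37 of the 77 genes in islets labelled bKO (29.8% of all genes) and below them for 16 (35.3%), and in controls for 37 (30.5%) and 19 (40.0%). The changes were small: the median log2 change was 0.19 in islets labelled bKO (quartiles -0.13 and 0.44, all genes -0.061) and 0.11 in controls (-0.15 and 0.39, all genes -0.10). Only Mrps6 and Mrpl30 changed at least 2-fold in either genotype, against 31.3% of all genes in islets labelled bKO and 29.3% in controls. The count of higher over lower genes rests on the scaling. With library totals alone 20 rose and 25 fell in islets labelled bKO, where 20.2% of all genes rose and 43.9% fell, and 18 rose and 32 fell in controls, where 18.9% and 45.4% of all genes did. The medians were then -0.04 and -0.12, and those of all genes -0.29 and -0.33. With DESeq2's size factors the medians were 0.27 and 0.20, and 0.29 and 0.18 once the library that stood apart was left out. The 60 genes with under 10% exon overlap, a choice made after seeing the data, had medians of 0.11 and 0.058. Under TMM, DESeq2's size factors and library totals alike, 20 genes rose and 10 fell in islets labelled bKO (20.2% and 30.4% of all genes), and 18 rose and 11 fell in controls (18.9% and 29.7% of all genes).

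**Figure D2:**
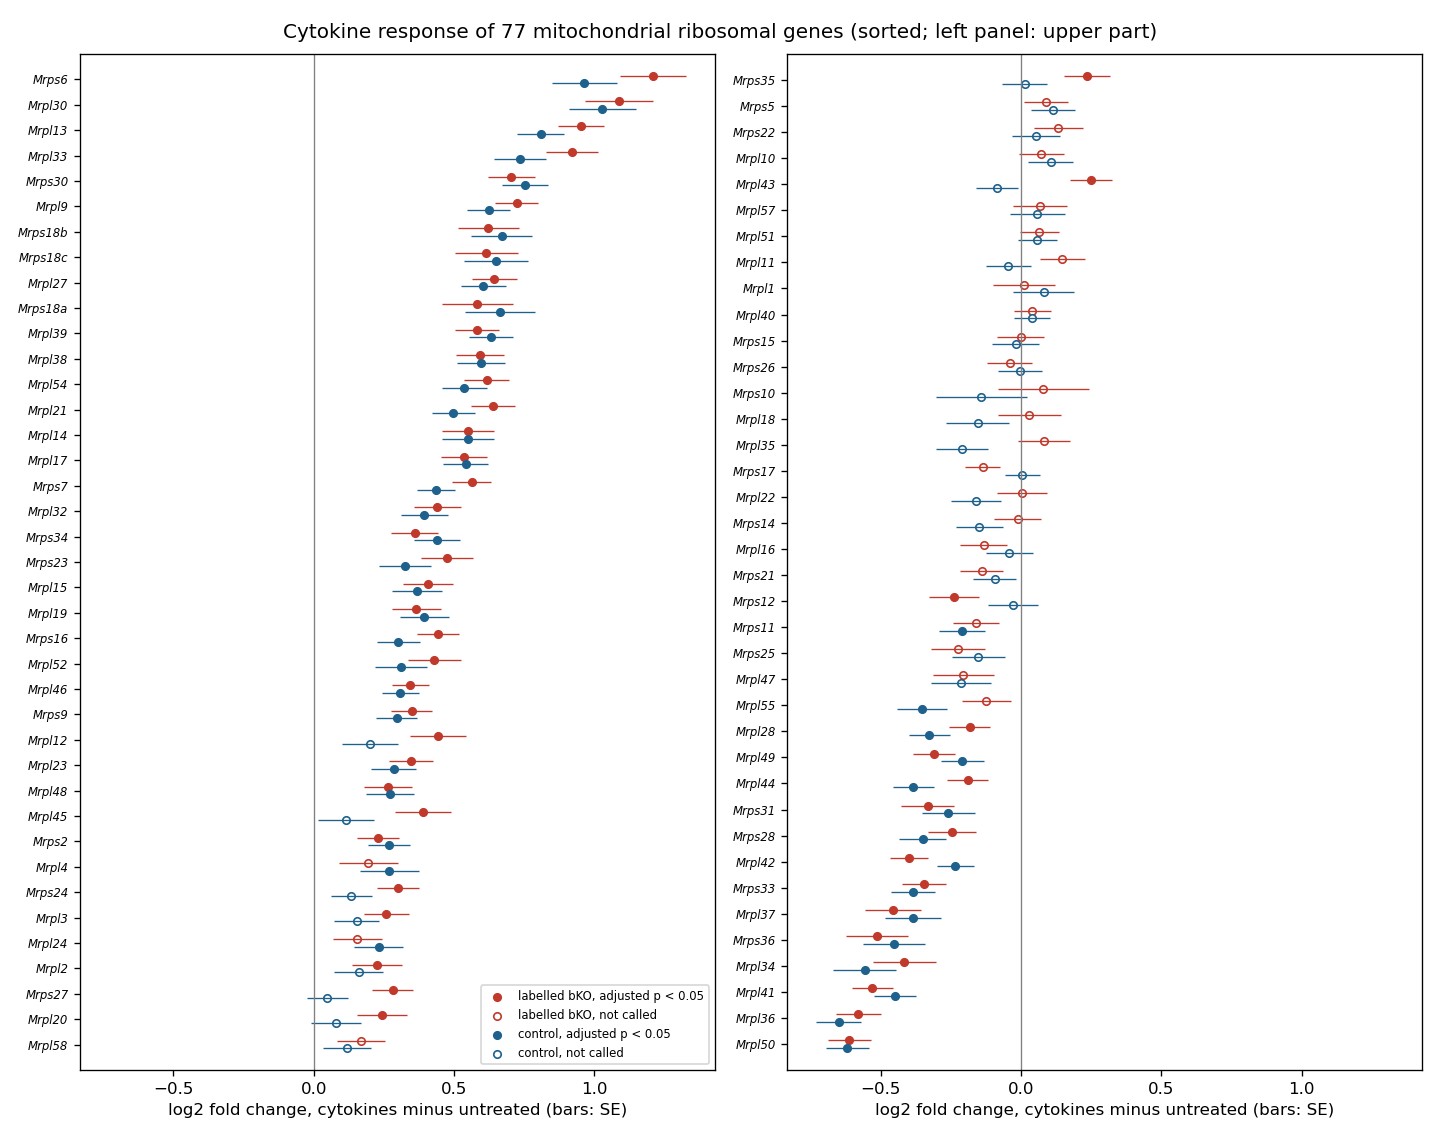
Log2 fold change on the TMM scale, cytokines minus untreated, of each of the 77 tested genes (points; bars are SE; red for islets labelled bKO, blue for controls; filled where adjusted p was under 0.05). Mrps6 and Mrpl30 lead the left panel, Mrpl50 and Mrpl36 close the right one, and the red and blue points of a gene lie close together along the list.

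Mrps6 changed most in islets labelled bKO, and Mrpl30 in controls. Mrps6 is a small-subunit protein with a bacterial homologue, at chr16:92058270-92112227 on the plus strand. It had 7.22, 8.14 and 6.84 CPM in treated islets labelled bKO, against 3.01, 3.16 and 3.43 in untreated ones, and 7.84, 6.62 and 6.78 in treated controls, against 3.77, 3.55 and 3.55 in untreated controls. Each treated library lay above each untreated one in both genotypes. The log2 change was 1.21 in islets labelled bKO (SE 0.12, adjusted p = 4.4e-06) and 0.96 in controls (SE 0.12, adjusted p = 2.7e-05). Its exons share 19.9% of their bases with Slc5a3, an inositol transporter gene read on the same strand, and Gm49711. Slc5a3 was also higher (log2 0.88 in islets labelled bKO and 0.60 in controls), and its part in the result was not tested.

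Mrpl30, a large-subunit protein also found in bacteria, shares no exon base with another gene (chr1:37890477-37898535, plus strand). It had 62.6, 43.8 and 56.6 CPM in treated islets labelled bKO, against 24.5, 25 and 27.2 in untreated ones, and 51.9, 62.2 and 51.8 in treated controls, against 26.1, 27.6 and 27.6 in untreated controls. Replicate 2 of the treated islets labelled bKO was the lowest treated library, yet no treated library came near an untreated one. The changes were 1.09 (SE 0.12, adjusted p = 1.3e-05) in islets labelled bKO and 1.03 (SE 0.12, adjusted p = 2.1e-05) in controls.

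Mrpl13 and Mrpl33, both large-subunit proteins with bacterial homologues, followed. Mrpl13 (chr15:55534094-55557748, minus strand) had 46.4, 47 and 43.8 CPM in treated islets labelled bKO, against 24.9, 22.5 and 23.4 in untreated ones, and 46.2, 44.1 and 38.2 in treated controls, against 25.1, 22.9 and 25.4 in untreated controls. Mrpl33 (chr5:31596935-31664384, plus strand) had 23.7, 22.9 and 24.4 CPM in treated islets labelled bKO, against 11.7, 12.8 and 13.1 in untreated ones, and 22.9, 20.1 and 18.2 in treated controls, against 11.7, 12.2 and 12.8 in untreated controls. Neither gene's groups overlapped. Mrpl13 rose by log2 0.95 in islets labelled bKO and 0.81 in controls (SE 0.08 in both), and Mrpl33 by 0.92 and 0.74 (SE 0.09 in both).

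At the other end stood Mrpl50 and Mrpl36. Mrpl50, a protein added in the mitochondrial lineage (chr4:49512596-49521093, minus strand), had 17.7, 18.1 and 16 CPM in treated islets labelled bKO, against 25, 25.4 and 28.8 in untreated ones, and 18.5, 17.9 and 18 in treated controls, against 28.2, 27.3 and 28 in untreated controls. Mrpl36, a very small zinc-binding protein with a bacterial homologue (chr13:73328513-73332178, plus strand), had 14.4, 15.4 and 14.3 CPM in treated islets labelled bKO, against 21.2, 22.3 and 22.5 in untreated ones, and 15.5, 14.1 and 14.6 in treated controls, against 25.4, 21.7 and 22.2 in untreated controls. Both fell in both genotypes with no overlap between treated and untreated libraries. Mrpl50 changed by -0.61 in islets labelled bKO and -0.62 in controls (SE 0.08 in both), and Mrpl36 by -0.58 and -0.65 (SE 0.08 in both). Mrpl30 was called higher and Mrpl50 lower in both genotypes under TMM, DESeq2's size factors and library totals alike. The ratio of their counts needs no scaling. It was 3.53, 2.42 and 3.54 in treated islets labelled bKO against 0.98, 0.983 and 0.945 in untreated ones. In controls it was 2.81, 3.47 and 2.88 with cytokines, against 0.924, 1.01 and 0.987 without. This pair was chosen after its values were seen, so the difference follows from the choice. A ratio cannot show in which direction each gene moved.

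**Figure D3:**
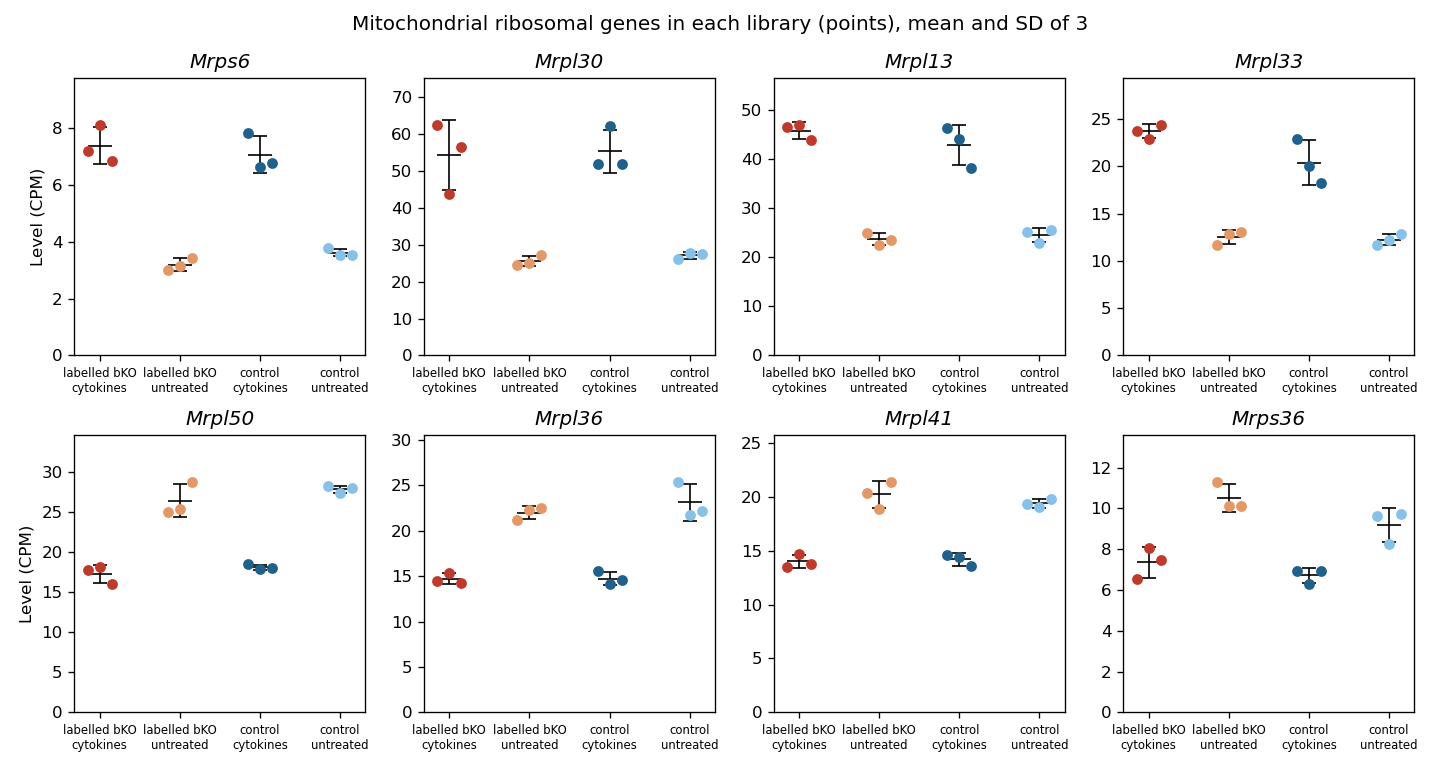
Level in CPM of 8 genes in each of the 12 libraries (points), with the mean and SD of 3 libraries, for treated and untreated islets labelled bKO and then treated and untreated controls. The upper row shows genes that were higher with cytokines, the lower row genes that were lower, and in none of the 8 panels do treated and untreated libraries of a genotype overlap.

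The promoters of Mrps6 and Mrpl30, which rose most, and of Mrpl50 and Mrpl36, which fell most, are shown because these genes went opposite ways in the same libraries. They are RefSeq promoters of GRCm38.p6, 250 bases before to 50 after the annotated start, read in the direction of the gene, with motif matches in capitals. The stretches are chr16:92058086-92058385 (plus strand) for Mrps6, chr1:37890227-37890526 (plus) for Mrpl30, chr4:49521034-49521333 (minus) for Mrpl50 and chr13:73330759-73331058 (plus) for Mrpl36.
Mrps6: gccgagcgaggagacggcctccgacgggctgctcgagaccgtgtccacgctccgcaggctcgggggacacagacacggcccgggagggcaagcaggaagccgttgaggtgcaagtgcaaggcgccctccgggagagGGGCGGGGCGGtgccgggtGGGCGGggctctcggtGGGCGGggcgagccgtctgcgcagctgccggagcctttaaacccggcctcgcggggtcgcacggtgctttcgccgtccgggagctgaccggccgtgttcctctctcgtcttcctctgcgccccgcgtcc
Mrpl30: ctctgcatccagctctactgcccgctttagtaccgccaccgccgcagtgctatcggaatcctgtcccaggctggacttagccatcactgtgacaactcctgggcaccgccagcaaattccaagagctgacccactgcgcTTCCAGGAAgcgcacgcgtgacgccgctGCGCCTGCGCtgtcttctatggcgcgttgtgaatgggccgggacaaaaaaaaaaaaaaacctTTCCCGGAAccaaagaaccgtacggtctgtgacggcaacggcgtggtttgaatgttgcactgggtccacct
Mrpl50: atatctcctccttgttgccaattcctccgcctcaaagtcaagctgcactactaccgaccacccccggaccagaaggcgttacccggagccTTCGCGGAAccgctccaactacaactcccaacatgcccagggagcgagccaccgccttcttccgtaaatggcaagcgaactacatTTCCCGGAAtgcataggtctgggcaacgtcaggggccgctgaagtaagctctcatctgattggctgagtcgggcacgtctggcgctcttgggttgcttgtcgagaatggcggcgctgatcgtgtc
Mrpl36: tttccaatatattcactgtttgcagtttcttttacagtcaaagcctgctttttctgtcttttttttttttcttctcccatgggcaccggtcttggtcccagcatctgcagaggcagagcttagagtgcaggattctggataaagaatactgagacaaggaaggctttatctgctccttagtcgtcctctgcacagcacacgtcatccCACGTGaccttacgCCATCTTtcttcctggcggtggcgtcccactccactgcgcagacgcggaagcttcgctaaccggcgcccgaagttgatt
The capitals are the Sp1 box GGGCGG in Mrps6, with 4 matches of which the first overlaps the next. In Mrpl30 they are a match to the NRF1 motif and 2 to the STAT element TTCNNNGAA, in Mrpl50 2 matches to TTCNNNGAA, and in Mrpl36 the E-box CACGTG and a reverse-strand match to the YY1 core AAGATGG. The STAT element is here in the promoters of Mrpl30, which rose, and Mrpl50, which fell, and both genes were picked for their changes. Its relation to the direction of change was not tested.

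Both strands were searched for these motifs, for the ETS core CCGGAAG, bound by GABP, and for the interferon factor motif (GAAA, any 2 bases, GAAA), in the promoters of the 69 genes that matched a RefSeq entry and of all 27025 genes. The ETS core was in 26 of the 69 (37.7%) against 9.93% of all genes. The NRF1 motif (GCGCA, any base, GCGC), named for the regulator of nuclear genes for mitochondria, was in 13 (18.8%) against 5.19%, and the YY1 core in 13 (18.8%) against 7.28%. The Sp1 box was in 34 (49.3%) against 38.2%, and the E-box in 5 (7.25%) against 8.09%. The STAT element was in 6 (8.7%) against 9.55% and the interferon factor motif in 3 (4.35%) against 3.99%. By response, the ETS core was in 11 of the 23 genes with a promoter that rose in both genotypes (47.8%) and in 2 of the 12 that fell in both (16.7%), and the NRF1 motif in 7 (30.4%) and 1 (8.33%). The STAT element was in 1 (4.35%) and 3 of the 12, the YY1 core in 4 (17.4%) and 4 (33.3%), the E-box in 1 (4.35%) and 2 (16.7%), the Sp1 box in 12 (52.2%) and 5 (41.7%), and the interferon factor motif in 1 (4.35%) and 0. These counts are a description of letters in 300 bases, without a test, and ETS and STAT letters can overlap where TTCNNNGAA ends in CCGGAAG.

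Among the 30 large-subunit proteins with bacterial homologues, 16 rose and 3 fell in islets labelled bKO (median 0.23), and 14 rose and 4 fell in controls (0.18). Besides Mrpl30, Mrpl13 and Mrpl33, the genes with the largest rises were Mrpl9 (0.72 in islets labelled bKO, 0.62 in controls), Mrpl27 (0.64 and 0.60) and Mrpl21 (0.64 and 0.50). Mrpl34 was among the genes that fell. It had 10.0, 11.6 and 9.76 CPM in treated islets labelled bKO, against 15.7, 13 and 13.1 in untreated ones, and 9.63, 8.16 and 9.56 in treated controls, against 13.1, 12.8 and 14.4 in untreated controls, with no overlap, and its log2 change was -0.42 (SE 0.11, adjusted p = 0.0069) in islets labelled bKO and -0.56 (SE 0.11, adjusted p = 0.0011) in controls. Mrpl2, next to the catalytic centre, was called in islets labelled bKO and not in controls (0.23, adjusted p = 0.043; controls 0.16, adjusted p = 0.14; -0.0075 and -0.07 with library totals alone). With library totals alone 9 of the 30 rose and 6 fell in islets labelled bKO and 8 and 10 in controls. Of all genes 20.2% then rose and 43.9% fell in islets labelled bKO, and 18.9% and 45.4% in controls. Of all genes, 28.8% rose and 33.6% fell in islets labelled bKO on the TMM scale, and 26.8% and 33.9% in controls.

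At the stalk, where translation factors dock, 2 of 4 tested genes rose in islets labelled bKO and 1 in controls, and 0 fell. Among all genes 28.8% and 26.8% rose and 33.6% and 33.9% fell, and 4 genes are too few to set apart from these shares. Mrpl54 rose in both (0.62 and 0.54, SE 0.08). Mrpl12, which is also known to bind the mitochondrial RNA polymerase, had 31.4, 40.7 and 33.6 CPM in treated islets labelled bKO, against 28.4, 24.3 and 25.1 in untreated ones, and 33, 29.3 and 30.1 in treated controls, against 26.7, 26.6 and 27.2 in untreated controls. Treated libraries lay above untreated ones in both genotypes, and islets labelled bKO passed the test while controls did not (0.44, SE 0.10, adjusted p = 0.0023; controls 0.20, SE 0.10, adjusted p = 0.101, and -0.03 with library totals alone).

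Around the exit of the peptide tunnel, where new proteins meet the inner membrane, 4 of 8 genes rose and 1 fell in each genotype. The 1 that fell was Mrpl44, which carries a ribonuclease III-like fold (-0.19, SE 0.07, adjusted p = 0.0397 in islets labelled bKO; -0.38, SE 0.07, adjusted p = 0.00076 in controls). In islets labelled bKO this call was lost with DESeq2's size factors and without treated replicate 2 labelled bKO. In controls it held in every setting run. Mrpl39 rose in both (0.58 and 0.63). In the central protuberance 3 of 5 genes rose and 0 fell in each genotype. Mrpl18, which in mammals lies there with a structural transfer RNA, was not called (0.03, adjusted p = 0.83; -0.16 in controls, adjusted p = 0.25). With library totals alone the stalk had 1 gene higher and 0 lower in islets labelled bKO and 1 and 1 in controls, the tunnel exit 2 and 2, and 2 and 3, and the central protuberance 1 and 1, and 1 and 2. On the TMM scale 28.8% of all genes rose and 33.6% fell in islets labelled bKO, and 26.8% and 33.9% in controls. With library totals alone these shares were 20.2% and 43.9%, and 18.9% and 45.4%. These 3 lists are too short to set their counts apart from such shares.

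Of the 20 tested large-subunit proteins listed as specific to mitochondria, 10 rose and 6 fell in islets labelled bKO (median 0.21), and 8 rose and 6 fell in controls (0.09). With library totals alone 5 rose and 7 fell, and 5 and 9. Of all genes 20.2% then rose and 43.9% fell in islets labelled bKO, and 18.9% and 45.4% in controls. The shares of all genes on the TMM scale were 28.8% higher and 33.6% lower in islets labelled bKO, and 26.8% and 33.9% in controls. Mrps30 carries a small-subunit name but sits in the large subunit. It had 38.5, 31.2 and 36.3 CPM in treated islets labelled bKO, against 22.1, 21.3 and 21.5 in untreated ones, and 37.9, 40.1 and 36.1 in treated controls, against 23.1, 21.3 and 23.4 in untreated controls, a rise of 0.70 and 0.75 (SE 0.08) with no overlap. Mrpl41, Mrpl37 and Mrpl42 fell beside Mrpl50. Mrpl41 had 13.5, 14.7 and 13.7 CPM in treated islets labelled bKO, against 20.4, 18.9 and 21.4 in untreated ones, and 14.6, 14.4 and 13.5 in treated controls, against 19.4, 19 and 19.8 in untreated controls. Mrpl37 changed by -0.46 in islets labelled bKO and -0.38 in controls, and Mrpl42 by -0.40 and -0.23. Mrpl58, a peptidyl-tRNA hydrolase that became part of the ribosome and can free stalled particles, was not called (0.17, adjusted p = 0.11; controls 0.12, adjusted p = 0.25). Mrpl52, one of the most abundant, rose (0.43 and 0.31).

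In the small subunit, 7 of 16 proteins with bacterial homologues rose and 2 fell in islets labelled bKO (median 0.08), and 6 rose and 2 fell in controls (0.06). With DESeq2's size factors 0 of these 16 were lower in islets labelled bKO and 1 in controls. The same counts were found without treated replicate 2 labelled bKO. Of 10 proteins listed as specific to mitochondria, 5 rose and 2 fell in islets labelled bKO (0.18), and 3 and 2 in controls (0.03). Of all genes 28.8% rose and 33.6% fell in islets labelled bKO, and 26.8% and 33.9% in controls. The 3 of 10 higher in controls is thus near the share of all genes. Under library totals alone the small-subunit medians were below 0 in both genotypes. Mrps12, a protein of the decoding site, had 30.7, 25.6 and 29 CPM in treated islets labelled bKO, against 35.2, 31.2 and 34.4 in untreated ones, and 32.3, 30.2 and 28.9 in treated controls, against 33.6, 29.2 and 30.3 in untreated controls. It was called lower in islets labelled bKO on the TMM scale (-0.24, adjusted p = 0.034) and not called in controls (-0.03, adjusted p = 0.80, where 6 other settings gave a value above 0). The call in islets labelled bKO was lost with DESeq2's size factors and without treated replicate 2 labelled bKO. Mrps33 fell in both (-0.34 and -0.38). Mrps21, the most abundant small-subunit gene per kilobase, was not called (-0.14, adjusted p = 0.13; controls -0.09, adjusted p = 0.30), nor were Mrps25 (-0.22 and -0.15) and, in the large subunit, Mrpl47 (-0.21 and -0.21).

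Mrps18a, Mrps18b and Mrps18c are paralogs that descend from a single bacterial protein. Mrps18c keeps its site in the small subunit, Mrps18b lies elsewhere in the small subunit and Mrps18a belongs to the large subunit. In the counts above, Mrps18c is listed with the bacterial homologues and the other two, which sit at other places, with the proteins specific to mitochondria. All 3 rose to a like extent. Mrps18a had 48.4, 38.5 and 38.7 CPM in treated islets labelled bKO, against 32.5, 25.1 and 26.3 in untreated ones, and 48.9, 51.4 and 40.5 in treated controls, against 28.2, 30.2 and 30.5 in untreated controls. Mrps18b had 33.2, 24.3 and 32.5 CPM in treated islets labelled bKO, against 19.4, 18.1 and 20.9 in untreated ones, and 30.3, 31.6 and 29.8 in treated controls, against 19.1, 19.9 and 18.6 in untreated controls. Mrps18c had 11.5, 10.6 and 12.1 CPM in treated islets labelled bKO, against 6.53, 7.32 and 8.49 in untreated ones, and 13, 13.7 and 11.5 in treated controls, against 8.52, 7.99 and 7.89 in untreated controls. The log2 changes in islets labelled bKO were 0.58 (SE 0.13), 0.62 (SE 0.11) and 0.62 (SE 0.11) for Mrps18a, Mrps18b and Mrps18c, and in controls 0.66, 0.67 and 0.65 with the same SEs. Treated and untreated libraries did not overlap for any of them. Mrps18b and Mrps18c share 30.5% and 23.2% of their exon bases with Gm16279 and Gm43511, and Mrps18a shares none.

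Mrps36 is named as a ribosomal protein but has been found to be a subunit of the 2-oxoglutarate dehydrogenase complex of the TCA cycle. It had 6.54, 8.06 and 7.48 CPM in treated islets labelled bKO, against 11.3, 10.1 and 10.1 in untreated ones, and 6.93, 6.30 and 6.94 in treated controls, against 9.63, 8.24 and 9.72 in untreated controls. It fell in both genotypes (-0.51 in islets labelled bKO and -0.45 in controls, SE 0.11), with no overlap.

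**Figure D4:**
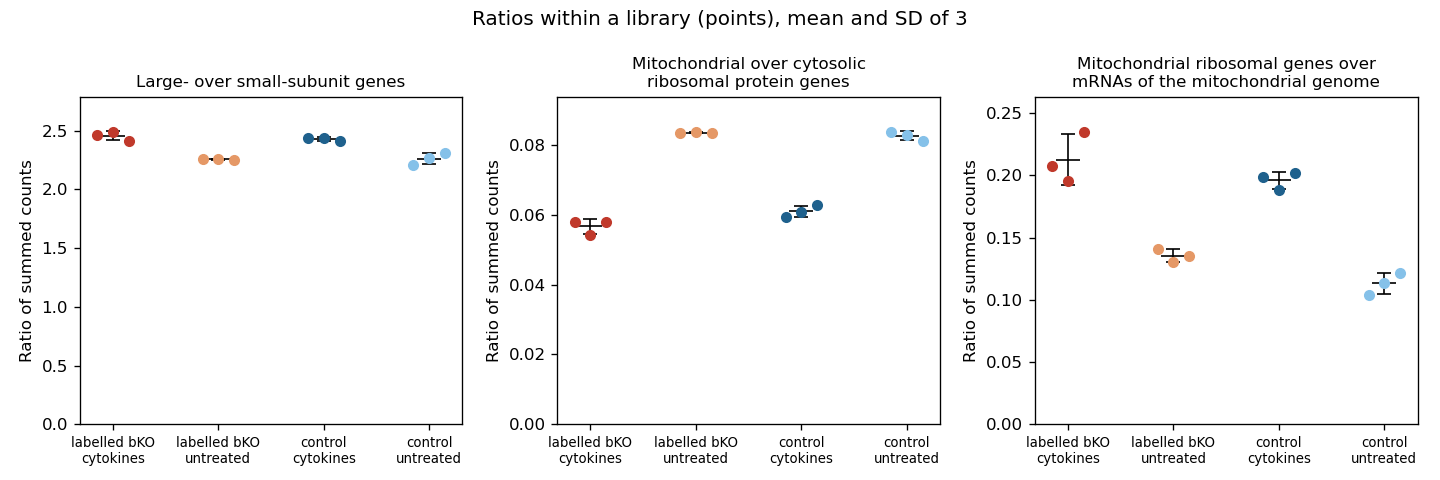
Ratios of summed counts in each of the 12 libraries (points), with the mean and SD of 3 libraries: large- over small-subunit genes, mitochondrial over cytosolic ribosomal protein genes, and mitochondrial ribosomal genes over the messenger RNAs of the mitochondrial genome. In each panel all treated libraries of a genotype lie on one side of its untreated ones.

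Sums over the genes do not need the scaling when they are set against each other within a library. Mrps18a and Mrps30 are counted here with the large subunit, where they sit, and Mrps36 with neither. Together the 78 genes took 0.192% of the counts in treated islets labelled bKO (SD 0.0012, n = 3), 0.192% in untreated ones (SD 0.0064), 0.185% in treated controls (SD 0.0037) and 0.190% in untreated controls (SD 0.0035). Large-subunit genes had 2.46, 2.49 and 2.42 times the counts of small-subunit genes in treated islets labelled bKO, against 2.26, 2.26 and 2.25 in untreated ones. In controls the ratio was 2.44, 2.43 and 2.41 with cytokines, against 2.21, 2.27 and 2.31 without. The balance was thus shifted to the large subunit in all 6 treated libraries, with no overlap.

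Cytosolic ribosomal proteins, which build the ribosomes outside mitochondria, had a larger median change. Among all genes 28.8% rose and 33.6% fell in islets labelled bKO on the TMM scale, and 26.8% and 33.9% in controls. With library totals alone these shares were 20.2% and 43.9%, and 18.9% and 45.4%. Of 79 cytosolic ribosomal genes 75 rose and 0 fell in each genotype (median 0.78 in islets labelled bKO and 0.62 in controls; 74 and 72 rose, and 2 and 0 fell, with library totals alone). Examples are Rps20 (1.25 and 1.10), Rpl17 (1.04 and 0.80), Rpl35a (0.99 and 0.84) and Rpl31 (0.85 and 0.77), and many of these genes have processed copies that can take or lose reads. Counts of mitochondrial ribosomal genes were 0.0579, 0.0542 and 0.0579 of those of cytosolic ribosomal genes in treated islets labelled bKO, against 0.0834, 0.0835 and 0.0833 in untreated ones. In controls the ratio was 0.0594, 0.0607 and 0.0627 with cytokines, against 0.0837, 0.0826 and 0.0811 without.

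On the TMM scale, the messenger RNAs that the mitochondrial ribosome translates went the other way. With library totals alone, the median of the mitochondrial ribosomal genes was below 0 too (-0.040 in islets labelled bKO and -0.124 in controls). That of the messengers was then -1.13 and -1.42. Among all genes 28.8% rose and 33.6% fell in islets labelled bKO on the TMM scale, and 26.8% and 33.9% in controls. With library totals alone these shares were 20.2% and 43.9%, and 18.9% and 45.4%. Of 13 messengers, 8 fell and 1 rose in each genotype on the TMM scale (median -0.90 in islets labelled bKO and -1.19 in controls). Their levels were very uneven. Over the 12 libraries mt-Co1 had 3699 to 6188 CPM, mt-Co2 9.18 to 14.7, mt-Nd3 0.241 to 1.58 and mt-Atp8 0.0918 to 2.14. The cause was not tested, and the ratio below rests mainly on the messengers with high counts. The genes for complex I subunits mt-Nd1 (-1.25 and -1.71), mt-Nd2 (-1.36 and -1.80) and mt-Nd4 (-0.90 and -1.19) fell, as did mt-Cytb of complex III (-0.99 and -1.20), whereas the 1 that rose on the TMM scale was mt-Co1 of complex IV (0.44 and 0.34; 0 rose with library totals alone). The ratio of mitochondrial ribosomal genes to these messengers was 0.208, 0.195 and 0.235 in treated islets labelled bKO, against 0.141, 0.130 and 0.135 in untreated ones. It was 0.198, 0.188 and 0.201 in treated controls, against 0.104, 0.114 and 0.122 in untreated controls. Both ribosomal RNAs of the organelle rose (mt-Rnr1 0.83 and 0.81, mt-Rnr2 0.69 and 0.51; 1 of the 2 in each genotype with library totals alone), but the sources used here do not say how the library preparation dealt with ribosomal RNA, and their level is uncertain.

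**Figure D5:**
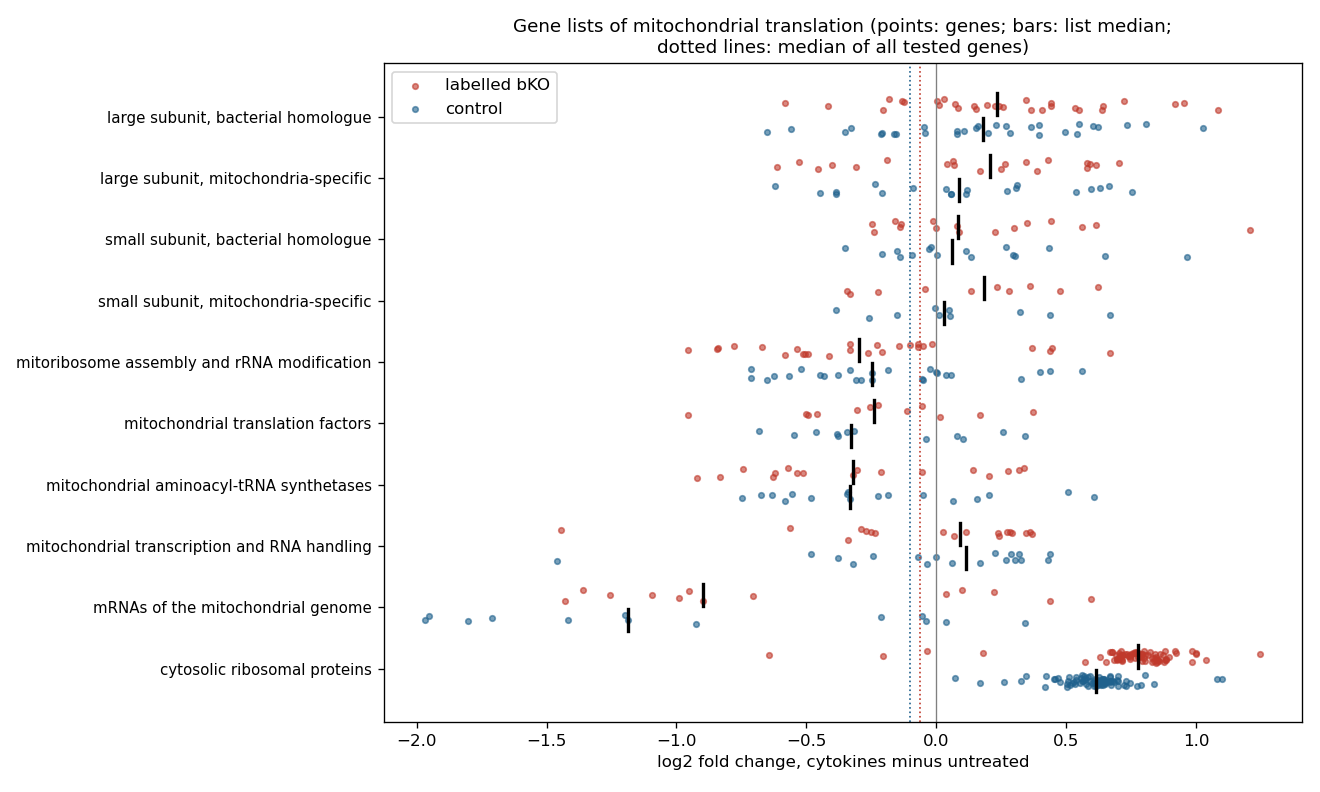
Log2 fold change on the TMM scale, cytokines minus untreated, of every tested gene of 10 lists (points; red above for islets labelled bKO, blue below for controls), with the median of each list (black bar) and of all tested genes (dotted lines at -0.061 and -0.10). By their medians the cytosolic ribosomal genes lie to the right, the mitochondrial messengers to the left, and the mitochondrial ribosomal genes between them. Single points overlap, and 5 of the 13 messengers in islets labelled bKO and 2 in controls lie above 0.

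Among the factors that assemble and serve the mitochondrial ribosome, more genes were called lower than higher. This also held for all genes, of which 28.8% rose and 33.6% fell in islets labelled bKO, and 26.8% and 33.9% in controls. Of 26 tested assembly and rRNA modification genes 3 rose and 13 fell in islets labelled bKO (median -0.30), and 4 rose and 14 fell in controls (-0.25). The GTPases Mtg1 (-0.67 and -0.71) and Gtpbp10 (-0.51 and -0.62) and the rRNA-binding factor gene Ngrn (-0.78 and -0.65) fell, while Mpv17l2 rose (0.67 and 0.56). Of 12 translation factors 1 rose and 6 fell in islets labelled bKO (-0.24), and 2 rose and 7 fell in controls (-0.33). Guf1, the counterpart of bacterial elongation factor LepA, changed by -0.95 and -0.68, the initiation factor Mtif2 by -0.49 and -0.55, and Mtfmt, which formylates the initiator tRNA, by -0.46 and -0.38. The release factor Mtrf1l was lower in controls (-0.46) and had -0.25 in islets labelled bKO (adjusted p = 0.065). Of 17 mitochondrial aminoacyl-tRNA synthetases 2 rose and 10 fell in each genotype (medians -0.32 and -0.33), with Rars2 (-0.92 and -0.75) and Iars2 (-0.54 and -0.67) lower and Aars2 higher (0.28 and 0.61). The medians of these 3 lists were below 0 under all 3 scalings in both genotypes, but the counts moved. With DESeq2's size factors, under which 30.4% of all genes fell in islets labelled bKO and 29.7% in controls, 12 and 8 assembly genes, 4 and 6 translation factors and 8 and 6 synthetases were lower. The 4 of 12 translation factors in islets labelled bKO and the 8 of 26 assembly genes in controls were thus near the shares of all genes. With library totals alone the counts of lower genes were 22 and 19, 9 and 8, and 12 and 11. Of all genes 43.9% then fell in islets labelled bKO and 45.4% in controls. The difference between these lists and the ribosomal proteins was not tested.

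Of 18 genes for mitochondrial transcription and RNA handling, 8 rose and 5 fell in islets labelled bKO (median 0.09), and 7 and 5 in controls (0.11), with both medians below 0 under library totals alone. The shares of all genes were 28.8% and 33.6% in islets labelled bKO, and 26.8% and 33.9% in controls. Lrpprc, which stabilises mitochondrial messenger RNAs, changed most in this list (-1.45 and -1.46, SE 0.07). The RNA-degrading partners Pnpt1 (0.29 and 0.44) and Supv3l1 (0.35 and 0.43) and Tbrg4 (0.28 and 0.32) rose. Of 5 mitochondrial ribosomal proteins with other symbols, 2 rose in islets labelled bKO and 3 in controls, and 0 fell, where library totals alone gave 1 higher and 2 lower in each. With library totals alone 20.2% of all genes rose and 43.9% fell in islets labelled bKO, and 18.9% and 45.4% in controls. Chchd1 (0.53 and 0.47) and Aurkaip1 (0.34 and 0.21) rose in both, Dap3 rose in controls (0.29) and had 0.15 in islets labelled bKO (adjusted p = 0.11), and Gadd45gip1 was not called (0.05 and -0.08).

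Neighbouring genes could differ in their calls. Mrpl46 and Mrps11, on chromosome 7, start from a shared stretch on opposite strands and overlap by 12.2% and 7.97% of their exon bases. Mrpl46 rose (0.34, adjusted p = 0.00079 in islets labelled bKO; 0.31, adjusted p = 0.0017 in controls). Mrps11 had -0.16 (adjusted p = 0.11) in islets labelled bKO and was called lower in controls (-0.21, adjusted p = 0.0422). That call was lost with DESeq2's size factors, and the calls of Mrpl46 did not hold under all 3 scalings either. This pair was chosen after its values were seen, and the sources used here do not name the strand setting of the counting.

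Most genes called in one genotype were also called in the other. Of the 38 genes that rose in islets labelled bKO and the 31 that rose in controls, 29 were shared (76.3% and 93.5% of each list). Of the 14 and 15 that fell, 13 were shared (92.9% and 86.7%). Most calls were shared among all tested genes too. There 5711 rose in islets labelled bKO, 5298 in controls and 4568 in both, and 6647, 6704 and 5538 fell. The number called in opposite directions was 0, 70 of 77 had the same sign, and the log2 changes correlated across the 77 genes (Pearson 0.955, Spearman 0.952; 0.895 and 0.878 over all tested genes), a description across genes measured in the same libraries. In the test of the difference between the responses, islets labelled bKO minus controls, 0 of the 77 genes were called, and 0.0% of all genes. DESeq2 called 0 of them too, and 3 had an unadjusted p under 0.05 in edgeR.

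These 3 were Mrpl43, Mrpl35 and Mrps27. Mrpl43 had 27, 30.1 and 30.8 CPM in treated islets labelled bKO, against 25.6, 23.4 and 24.9 in untreated ones, and 27.3, 24.1 and 24.9 in treated controls, against 27.3, 26.9 and 27 in untreated controls. Treated libraries were above untreated ones under the bKO label and overlapped with them in controls. The difference between the responses was 0.34 (SE 0.11, adjusted p = 0.356). For Mrpl35 it was 0.29 (SE 0.13, adjusted p = 0.453) and for Mrps27 0.23 (SE 0.10, adjusted p = 0.451). Mrps27 was called in islets labelled bKO (0.28) and had 0.05 in controls, and Mrps35 was called there at 0.24 and had 0.01 in controls. Mrpl43 shares 33.4% of its exon bases with the helicase gene Twnk, which had -0.15 and -0.18.

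Between genotypes, 0 of the 77 genes were called with cytokines, where 0.232% of all tested genes were (0.141% higher and 0.0909% lower), and 0 without, where 0.0758% were, all of them higher. DESeq2 also called 0 in both. The 3 libraries labelled bKO lay above the 3 controls for 9 of the 77 genes with cytokines (6.94% of all genes) and below them for 2 (10.8%), and without cytokines for 1 (8.24%) and 4 (7.94%). At an unadjusted p under 0.05 edgeR had 5 genes with cytokines and 0 without. The median difference of islets labelled bKO from controls was 0.043 with cytokines and -0.0093 without. With cytokines the smallest p belonged to Mrps27 (0.20, SE 0.07, adjusted p = 0.215), Mrpl43 (0.20, SE 0.07, adjusted p = 0.216) and Mrpl52 (0.25, SE 0.09, adjusted p = 0.218). Without cytokines they were Mrpl44 (-0.13), Mrpl43 (-0.13) and Mrps36 (0.19), each with an adjusted p of 1. Mrps6 differed by 0.06 with cytokines and -0.18 without, and Mrpl30 by -0.03 and -0.08, none of them called.

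Markers of other cells moved with the cytokines in the same libraries, where 28.8% of all genes rose and 33.6% fell in islets labelled bKO. In controls these shares were 26.8% and 33.9%. Macrophage markers (7 of 8 higher in each genotype) summed to 469 to 605 CPM in treated islets labelled bKO, 156 to 217 in untreated ones, 451 to 555 in treated controls and 162 to 188 in untreated controls. Endothelial markers (8 of 8 lower in each) summed to 151 to 197, 592 to 601, 117 to 173 and 521 to 685 CPM in the same order. Acinar markers summed to 748 to 2800, 2020 to 3295, 865 to 1402 and 4464 to 7246 CPM, and alpha cell markers to 6277 to 7621, 15492 to 18981, 8403 to 11107 and 17785 to 22829. No defining marker of these 4 types was at 0 throughout a group except Amy2a5, an acinar gene, in untreated islets labelled bKO. Ductal markers summed to 1277 to 5354, 1652 to 2199, 740 to 2060 and 1330 to 1745 CPM (0 of 4 called in islets labelled bKO, 2 lower in controls), and stellate markers to 1735 to 4678, 1213 to 1656, 844 to 2418 and 1074 to 1369 (3 of 5 higher in islets labelled bKO, 1 in controls). Their part in the results was not tested, and in bulk RNA fewer cells of a type and less RNA per cell cannot be told apart.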

How the data were processed

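The counts are the raw whole numbers per gene that the authors deposited for 55536 genes. The submitters' processing notes name the GRCm38 genome, STAR 2.5.2a, featureCounts 1.6.2, cutadapt 1.16, FastQC 0.11.7 and DESeq2 1.30.0, and the sources used here do not name the strand setting or annotation release. The filtered table that was deposited beside it was not used, and 0 columns of counts were left unused.

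The full table was filtered with filterByExpr, which kept 19800 genes, given TMM factors and analysed with edgeR 4.0.16 under R 4.3.3. The quasi-likelihood test had a coefficient per group over all 12 libraries, and p-values were adjusted by Benjamini-Hochberg over all tested genes, with calls under 0.05. It was tested on simulated data. The 5 comparisons were cytokine minus untreated in each genotype, labelled bKO minus control with and without cytokines, and the difference of the responses. Levels are CPM of the TMM-scaled library, divided by GENCODE exon length where genes are compared. Libraries of a group differed by a chi-square per degree of freedom of at least 16.3, so none was counted as a copy.

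The genes and lists were chosen with earlier results of these data known. Named with values were up to 8 genes per direction with the largest called change, at least 5 CPM and no overlap of groups; the 3 smallest p between genotypes or responses; the 4 highest and 4 lowest levels; Mrpl12, Mrps36, Mrpl58, Mrps18a, Mrps18b, Mrps18c, Mrps30, Mrps12, Mrpl18 and Mrpl44 for known roles; and up to 4 of each other list. Alternatives were DESeq2 size factors, library totals, no filter, DESeq2 1.42.0, a fit of the compared groups, a replicate block, genes grouped by known structure, leaving out each library and, chosen after seeing the data, genes with under 10% exon overlap.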

Additional observations from a re-analysis of the deposited data

How the results depend on the processing

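The median log2 change of the 77 genes with cytokines was 0.270 in islets labelled bKO and 0.197 in controls with DESeq2's size factors, and the same with its test. With library totals alone it was -0.040 and -0.124, with 20 genes higher and 25 lower in islets labelled bKO and 18 and 32 in controls. Fitting the compared groups only gave 0.168 in controls. Genes with under 10% exon overlap, an alternative chosen after seeing the data, had medians of 0.111 in islets labelled bKO and 0.058 in controls, with 26 of 60 higher and 14 lower, and 22 and 15. Leaving out 1 library gave 0.154 to 0.291 and 31 to 42 genes higher and 10 to 14 lower in islets labelled bKO, and 0.080 to 0.178 with 28 to 37 and 12 to 15 in controls. The highest medians came when treated replicate 2 labelled bKO was left out (42 higher and 10 lower, and 37 and 12). Scaled by TMM, the genes took 0.207%, 0.176%, 0.202% and 0.177% of the counts in treated and untreated islets labelled bKO and treated and untreated controls, and grouped by known structure 0.225%, 0.191%, 0.220% and 0.192%. Unscaled, the genes grouped by known structure took 0.209%, 0.208%, 0.201% and 0.206%.

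Single genes changed sign in 22 of the values recomputed, 49 lost and 25 gained their call, and 1287 kept both. With library totals alone Mrpl18 was at -0.20, Mrpl35 at -0.15, Mrpl2 at -0.0075 and Mrpl58 at -0.066 in islets labelled bKO, and Mrpl12 at -0.030, Mrpl2 at -0.070, Mrpl58 at -0.11, Mrps27 at -0.18 and Mrps35 at -0.22 in controls. In controls Mrps35 was at -0.00995 with no filter and -0.00385 to 0.0845 when 1 library was left out, and Mrpl43 at 0.0028 with DESeq2's size factors and 0.0026 with its test. Mrps12 in controls was at 0.063 with both, 0.034 with the compared groups and -0.0742 to 0.0446 when 1 library was left out, and Mrpl18 in islets labelled bKO at -0.0677 to 0.123. The cause of these changes was not tested.

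With a replicate block 35 genes were higher and 11 lower in islets labelled bKO, 31 and 13 in controls, and 0 in the other comparisons. Same-numbered libraries correlated at -0.488 to 0.0958, with the lowest value between genotypes, and at -0.103 to 0.0958 within a genotype. These are correlations of deviations from means of 3 libraries, and they cannot show which libraries share a mouse. The least counted of the 77 genes had 197 counts in its lowest library, and Mrpl53, with 0 counts, could not be tested.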
